A study of Mus musculus with 6 samples.

Results

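Lysosomal enzymes and membrane proteins were followed across 3 kinds of spermatogonial stem cell from the mouse, grown in culture. In the testis these cells renew themselves and give rise to sperm. The genes were taken from a fixed list of 31 names, which covers proteases, glycosidases, lipid-handling proteins and proteins of the lysosomal membrane. Of these 30 were measured, among 18194 genes in all. Cd63 had no probe set with exactly 1 gene symbol in the probe table used here and is not described further. Each gene is represented by its probe set with the highest mean over the 6 arrays.

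Testes of ICR males 3 to 5 days old gave the cells, which were grown on feeder layers of mouse embryonic fibroblasts that had been growth-arrested with mitomycin. The groups are unipotent germ-line stem cells (SSC), cells of an intermediate state (iSSC) and cells of a multipotent state (mSSC), with 2 arrays each, and the colonies were picked mechanically by their shape. The labels name no transgene or drug for any group, and all groups share strain, sex, age and feeder type. Clumps came from passages 0 to 1 and 9 to 10, and cultures were continued in the germ stem cell medium or moved to a serum-free medium of embryonic stem cell type. The labels assign no array to a passage or medium. They do not say that replicates are separate cultures either, so every p-value reflects the spread between these samples alone, which may be technical.

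Lysosomes are acidic organelles in which hydrolases break down proteins, glycans and lipids taken up from outside or delivered by autophagy. Their membrane is lined by heavily glycosylated proteins such as Lamp1 and Lamp2. Every cell has lysosomes, but macrophages carry many more, and some lysosomal proteins, such as Cd68 and Laptm5, are used as markers of macrophages or of blood cells. Many lysosomal genes share an E-box in their promoter, the CLEAR element, to which Tfeb and its relatives bind, whereas macrophage genes often carry sites for the Ets factor PU.1, the product of Spi1.

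The promoters below show both kinds of letters in genes that behaved differently across the arrays. Each is the 250 bases before the RefSeq start of the gene in GRCm38.p6, written 5′ to 3′ on the strand of the gene. Capitals mark matches, on either strand, to the 8-base core of the CLEAR element (TCACGTGA), to the E-box CACGTG that lies within that core, to a PU.1 motif (GAGGAAGT) or to the core GAGGAA that lies within it. Lamp1 (chr8:13158911-13159160, plus strand) is shown for 4 E-boxes that begin 61, 45, 28 and 15 bases before the start. Ctsd (chr7:142387828-142388077, minus strand) and Gla (chrX:134601006-134601255, minus strand) hold the full CLEAR core, Ctsd at 1 place and Gla at 2. Lipa (chr19:34527475-34527724, minus strand) and Cd68 (chr11:69666171-69666420, minus strand) hold the PU.1 core and no E-box.
Lamp1: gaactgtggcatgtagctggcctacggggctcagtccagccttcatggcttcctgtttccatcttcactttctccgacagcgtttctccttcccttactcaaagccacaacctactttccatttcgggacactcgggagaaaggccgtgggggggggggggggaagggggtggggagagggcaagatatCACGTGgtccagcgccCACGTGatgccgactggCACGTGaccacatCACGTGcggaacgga
Ctsd: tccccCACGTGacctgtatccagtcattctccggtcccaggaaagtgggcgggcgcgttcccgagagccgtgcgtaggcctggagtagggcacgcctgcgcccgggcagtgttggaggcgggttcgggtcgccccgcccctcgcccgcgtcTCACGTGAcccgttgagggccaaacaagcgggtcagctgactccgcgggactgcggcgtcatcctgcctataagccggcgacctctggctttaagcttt
Gla: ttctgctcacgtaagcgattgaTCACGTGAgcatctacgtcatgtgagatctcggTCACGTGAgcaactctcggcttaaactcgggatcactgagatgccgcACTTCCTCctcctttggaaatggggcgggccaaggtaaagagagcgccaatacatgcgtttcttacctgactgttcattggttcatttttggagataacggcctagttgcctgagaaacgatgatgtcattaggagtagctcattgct
Lipa: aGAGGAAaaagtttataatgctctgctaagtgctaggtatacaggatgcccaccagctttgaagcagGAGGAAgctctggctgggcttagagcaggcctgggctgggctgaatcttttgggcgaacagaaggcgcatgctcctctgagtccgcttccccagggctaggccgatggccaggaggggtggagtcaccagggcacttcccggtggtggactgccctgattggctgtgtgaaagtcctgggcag
Cd68: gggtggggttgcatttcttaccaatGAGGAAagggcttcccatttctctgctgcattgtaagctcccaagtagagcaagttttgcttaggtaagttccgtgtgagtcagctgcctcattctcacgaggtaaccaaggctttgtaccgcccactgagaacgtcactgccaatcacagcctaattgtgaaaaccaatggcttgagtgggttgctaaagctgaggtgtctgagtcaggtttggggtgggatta

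The promoter table held 27 of the 31 listed genes. Ctsb, Ctsh, Asah1 and Npc1 had no entry there. A gene was counted when any of its entries held the letters, here and over all genes. Ctsa, Lgmn and Psap had a further entry that held none of them. An E-box was found before the start of 8 of the 27 genes (29.6%), against 6.86% of the 27025 genes in the table. These were Ctsa, Ctsd, Ctsl, Gaa, Gla, Glb1, Lamp1 and Lgmn. The CLEAR core was found in 3 genes, Ctsa, Ctsd and Gla (11.1%), against 0.907% of all genes. The PU.1 core GAGGAA was found in 13 (48.1%) against 25.9%, and the longer PU.1 motif in 2, Ctsc and Gla (7.41%), against 2.79%. The matches describe these letters only. Whether they go with the change of a gene was not tested. Lgmn and Ctsd, which fell in mSSC, hold an E-box, and so do Gla and Glb1, which did not pass the test. The PU.1 core was found for Lipa and Cd68, which fell, and for Laptm5 and Man2b1, which did not pass.

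The arrays had medians between 5.83 and 5.93 on the log2 scale over all probe sets. All 15 pluripotency markers rose in mSSC against SSC, and 13 of 16 germ-line markers fell while 2 rose. Markers of other cell types moved as well. Averaged over 26 macrophage genes, the log2 level was 10.08 and 9.33 in the arrays of SSC, 8.39 and 7.86 in iSSC, and 5.29 and 5.27 in mSSC. None of the 26 was among the lysosomal genes described here. In both mSSC arrays 17 of the 26 lay under the array median, among them C1qb, a chain of complement C1q, at 4.11 and 4.14. The mean of 21 fibroblast genes was 11.92 and 11.27 in SSC, 9.78 and 10.18 in iSSC, and 7.78 and 9.45 in mSSC. The fibroblast mean thus differed between the mSSC arrays. The macrophage mean was nearly equal there, but most of its genes were dim, and dim signals may hide a difference. No background level was measured. The excess of the 3′ over the 5′ signal of the beta-actin control was 0.89 in SSC replicate 1 and 0.12 to 0.61 in the other arrays. In such bulk samples fewer cells of a type and less RNA per cell cannot be told apart.

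Most lysosomal genes gave a bright signal in the bulk RNA of every kind of cell. Of the 30 genes 29 lay above the array median on all 6 arrays, and the exception was Ctsk in mSSC replicate 1. That median is over all probe sets and is easily passed, since the median over all genes was 7.11 to 7.43. The median of the 30 genes was 10.31 to 11.74. Averaged over the 30, the log2 level was 11.70 and 11.22 in the arrays of SSC, 10.88 and 10.85 in iSSC, and 9.95 and 10.46 in mSSC. SSC had the highest group mean for 23 genes and mSSC the lowest for 23. Both SSC arrays exceeded both mSSC arrays for 22 of the 30, against 26.3% of all genes. For 13 genes the arrays stood in the order SSC, iSSC, mSSC with no overlap, against 4.75% of all genes.

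**Figure D1:**
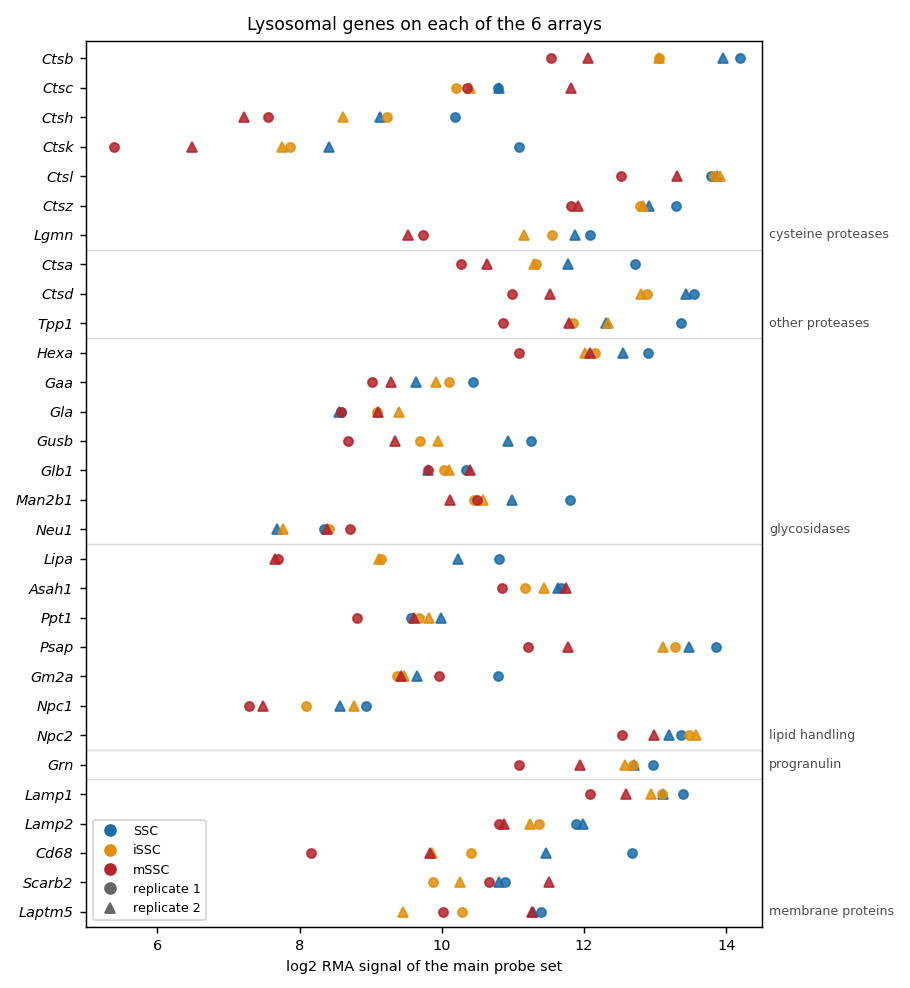
Log2 RMA signal (x axis) of the 30 lysosomal genes (rows, grouped by role) on each array, with colour for the kind of cell and a circle for replicate 1 or a triangle for replicate 2. Both SSC arrays sit to the right of both mSSC arrays for 22 of the 30 genes, and the order SSC, iSSC, mSSC without overlap holds for 13.

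The comparison of mSSC with SSC asks how the multipotent cells differ from the unipotent cells. Among the 30 lysosomal genes 14 fell, none rose and 16 did not pass the test. Over all genes 10.6% were called lower and 8.22% higher. Among the brighter genes that passed a filter on dim signal, which all 30 did, 16.9% were called lower. The median change of the lysosomal genes was -1.11, against 0.08 over all genes. Each change is given on the log2 scale with its SE from limma (n = 2 arrays per group), and p is adjusted over all genes of a comparison. The count was 7 without mSSC replicate 1, when Ctsb, Ctsh, Lgmn, Ctsd, Gusb, Lipa and Psap were still called. It was 0 with an unmoderated fit, which left 15 of the 30 at an unadjusted p under 0.05, beside 4696 of all 18194 genes. Macrophage and fibroblast genes fell between the same arrays, 23 of 26 and 16 of 21 of them, and their part in the lysosomal changes was not tested.

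Cysteine proteases of the papain family and legumain were the role with the most called genes, 5 of 7. Lgmn, the asparaginyl endopeptidase legumain, was at 12.08 and 11.87 in SSC, 11.55 and 11.16 in iSSC, and 9.73 and 9.53 in mSSC. The 3 kinds did not overlap, and the mSSC arrays were the lowest. Lgmn fell 5.08-fold in mSSC against SSC (-2.35 ± 0.24, adjusted p = 0.0026). Ctsb, an abundant endopeptidase, was at 14.19 and 13.95 in SSC, 13.06 and 13.05 in iSSC, and 11.54 and 12.05 in mSSC, again in 3 separate steps. It fell 4.84-fold (-2.28 ± 0.25, adjusted p = 0.0033). All 5 of its probe sets were lower in mSSC, but by amounts from -4.78 to -0.22. Ctsh, an aminopeptidase, was at 10.18 and 9.13 in SSC, 9.23 and 8.61 in iSSC, and 7.55 and 7.22 in mSSC. Here SSC and iSSC overlapped, and mSSC lay below both (-2.27 ± 0.40 against SSC, adjusted p = 0.014). Without mSSC replicate 2 Ctsh did not pass.

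Ctsk, the collagen-degrading protease of osteoclasts, had the largest change and the largest spread. It was at 11.08 and 8.41 in SSC, 7.86 and 7.75 in iSSC, and 5.39 and 6.49 in mSSC, so that the SSC arrays alone differed by 2.67. The difference of mSSC from SSC was -3.81 ± 0.83 (adjusted p = 0.026), and Ctsk did not pass without mSSC replicate 1 or without either iSSC array. Ctsz, a carboxypeptidase, fell less, by 1.23 ± 0.22 (adjusted p = 0.014), from 13.29 and 12.91 in SSC to 11.82 and 11.92 in mSSC. Without mSSC replicate 1 Ctsz did not pass. Ctsl, another endopeptidase, was at 13.78 and 13.87 in SSC, 13.83 and 13.91 in iSSC, and 12.52 and 13.31 in mSSC. Its SSC and iSSC values were nearly the same, and its difference of -0.91 ± 0.29 in mSSC did not pass (adjusted p = 0.081).

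Ctsc, the dipeptidyl peptidase that activates serine proteases of granules, was the exception among the cathepsins. Its levels were 10.79 and 10.80 in SSC, 10.20 and 10.40 in iSSC, and 10.35 and 11.82 in mSSC. The mSSC arrays lay on either side of the SSC arrays. No direction is given for Ctsc, because its sign changed with the processing in all 3 comparisons.

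Of the other proteases Ctsd and Ctsa fell. Ctsd, the main aspartic protease of lysosomes, was at 13.54 and 13.44 in SSC, 12.88 and 12.80 in iSSC, and 10.98 and 11.52 in mSSC. Its kinds were separate, and the fall in mSSC was 4.72-fold (-2.24 ± 0.25, adjusted p = 0.0034). Ctsa, a carboxypeptidase that also protects Glb1 and Neu1 from degradation, went from 12.71 and 11.77 in SSC to 11.33 and 11.30 in iSSC and 10.27 and 10.64 in mSSC. It fell by 1.78 ± 0.34 (adjusted p = 0.017), and it did not pass without mSSC replicate 1. Its partners in that complex did not pass. Glb1, the beta-galactosidase, was between 9.80 and 10.39 on all arrays. Neu1, a sialidase, was at 8.35 and 7.68 in SSC and 8.71 and 8.38 in mSSC (0.53 ± 0.34, adjusted p = 0.33). Tpp1, which cuts peptides from free amino ends, was at 13.36 and 12.31 in SSC and 10.86 and 11.79 in mSSC. No mSSC array reached the SSC arrays, but the difference of -1.51 ± 0.46 did not pass (adjusted p = 0.068).

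Of 7 glycosidases only Gusb fell. Gusb, the beta-glucuronidase, was at 11.26 and 10.93 in SSC, 9.69 and 9.95 in iSSC, and 8.68 and 9.34 in mSSC. The fall was 4.25-fold (-2.09 ± 0.29, adjusted p = 0.0068) with no overlap between kinds. Hexa, a subunit of beta-hexosaminidase, was at -1.14 ± 0.36 (adjusted p = 0.075) and Man2b1, an alpha-mannosidase, at -1.09 ± 0.32 (adjusted p = 0.062). Gaa, which breaks down glycogen, was at -0.89 ± 0.31 (adjusted p = 0.097). These 3 had both mSSC arrays below both SSC arrays without passing the test. For Man2b1 the second, dimmer probe set had the opposite sign. Gla, the alpha-galactosidase, was at 8.58 and 8.56 in SSC, 9.09 and 9.40 in iSSC, and 8.58 and 9.10 in mSSC, with no step between SSC and mSSC.

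Among lipid-handling proteins 3 of 7 fell. Lipa, the acid lipase that frees cholesterol and fatty acids, was at 10.81 and 10.23 in SSC, 9.15 and 9.11 in iSSC, and 7.69 and 7.66 in mSSC. The steps between kinds were wide and the replicates close, and the fall in mSSC was 7.18-fold (-2.84 ± 0.25, adjusted p = 0.0018). All 3 of its probe sets were lower, by values between -2.84 and -2.55, but with the most variable of them Lipa did not pass. Psap, the precursor of the saposins that help glycolipid enzymes, was at 13.85 and 13.47 in SSC, 13.28 and 13.11 in iSSC, and 11.21 and 11.77 in mSSC. Most of its step lay between iSSC and mSSC, and the fall against SSC was 4.51-fold (-2.17 ± 0.27, adjusted p = 0.0051).

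The cholesterol exporters Npc1 and Npc2 act in sequence, Npc2 in the lumen and Npc1 in the membrane. Npc1 fell by 1.36 ± 0.29 (adjusted p = 0.024), from 8.93 and 8.57 in SSC to 7.29 and 7.48 in mSSC. It did not pass without SSC replicate 1 or without either mSSC array. Npc2 stayed between 12.53 and 13.57 on all arrays and was at -0.52 ± 0.24 (adjusted p = 0.18), with 3 of 4 probe sets of this sign. The probe sets disagreed in size: with the most variable of them Npc2 was called, at -1.94 ± 0.35 (adjusted p = 0.018). The ceramidase Asah1, the thioesterase Ppt1 and the GM2 activator Gm2a did not pass either. Asah1 was at 11.67 and 11.64 in SSC and 10.84 and 11.74 in mSSC, which overlapped.

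Grn, the secreted and lysosomal progranulin, was at 12.97 and 12.70 in SSC, 12.69 and 12.57 in iSSC, and 11.09 and 11.94 in mSSC. Only mSSC stood clearly lower (-1.32 ± 0.32, adjusted p = 0.035). This was the least stable call of the 14, since Grn passed in 7 of 16 other settings and in none of those that left out an SSC or iSSC array or mSSC replicate 1. Leaving out either iSSC array gave the same fit, so these are not 16 separate checks.

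Membrane proteins gave 2 calls among 5. Lamp2, a receptor of chaperone-mediated autophagy, was at 11.88 and 11.99 in SSC, 11.36 and 11.24 in iSSC, and 10.81 and 10.88 in mSSC. Its replicates were close and its kinds separate, and it fell 2.13-fold (-1.09 ± 0.20, adjusted p = 0.015). All 4 of its probe sets were lower, with values from -2.57 to -1.09. Without mSSC replicate 1 Lamp2 did not pass. Lamp1 was at 13.39 and 13.11 in SSC, 13.09 and 12.94 in iSSC, and 12.09 and 12.59 in mSSC. The same order held, but the difference of -0.91 ± 0.25 did not pass (adjusted p = 0.054). Scarb2, which carries glucocerebrosidase to the lysosome, was at 10.89 and 10.80 in SSC, 9.87 and 10.25 in iSSC, and 10.66 and 11.51 in mSSC. The iSSC arrays were the lowest, and the SSC arrays lay between the mSSC arrays.

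Cd68 and Laptm5 are the listed membrane proteins best known from macrophages and blood cells. Cd68 was at 12.68 and 11.46 in SSC, 10.41 and 9.86 in iSSC, and 8.16 and 9.84 in mSSC. The kinds did not overlap, although mSSC replicate 2 came close to iSSC. Cd68 fell 8.40-fold in mSSC against SSC (-3.07 ± 0.63, adjusted p = 0.022), and it did not pass without SSC replicate 1 or without mSSC replicate 1. Laptm5 was at 11.40 and 11.28 in SSC, 10.28 and 9.45 in iSSC, and 10.02 and 11.27 in mSSC. Replicate 2 of mSSC was thus near the SSC level, and the difference of -0.69 ± 0.46 did not pass (adjusted p = 0.36).

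**Figure D2:**
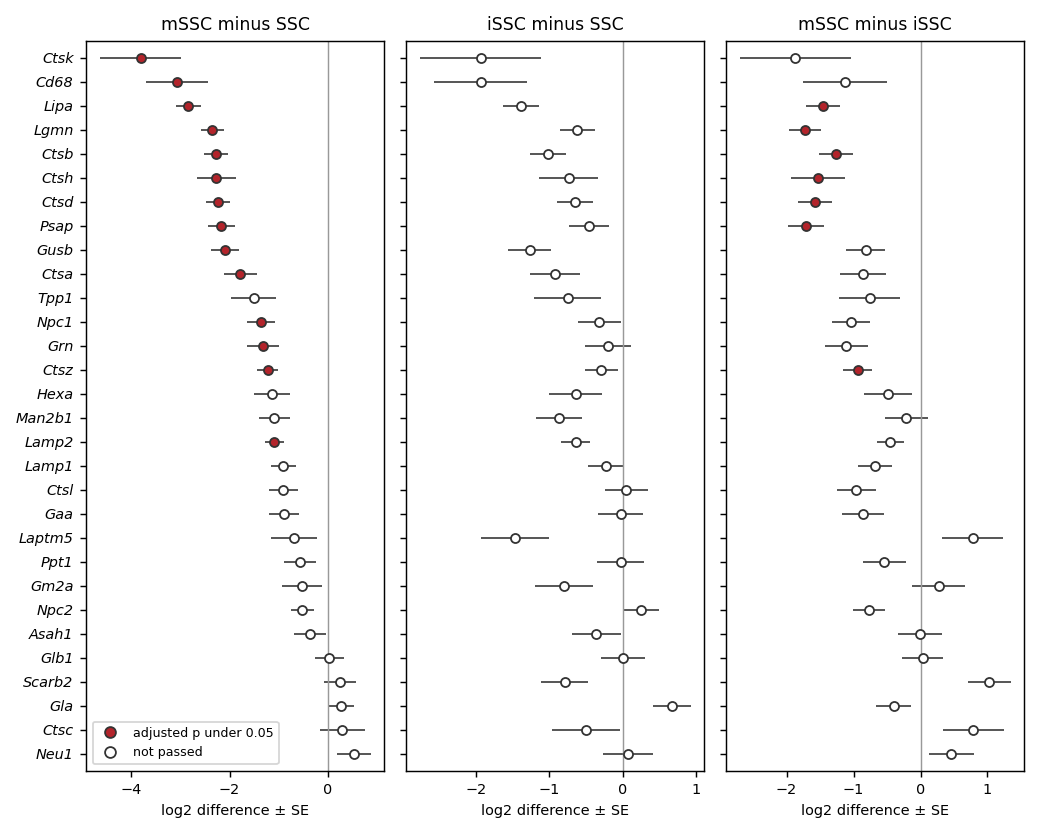
Log2 difference ± SE (x axis) of each lysosomal gene (rows, ordered by the difference of mSSC from SSC) in the 3 comparisons, with filled points for an adjusted p under 0.05 in limma. Filled points number 14 in mSSC against SSC, 0 in iSSC against SSC and 7 in mSSC against iSSC, and all of them lie below 0. Of the open points, 21 of the 90 gene and comparison pairs changed sign in some other setting, none of them filled.

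Setting iSSC beside SSC addresses how far the intermediate state differs from the unipotent cells. None of the 30 lysosomal genes passed in limma, against 1.87% of all genes called lower and 0.225% called higher. At an unadjusted p under 0.05 there were 12, beside 3090 of all 18194 genes. The unmoderated fit gave 4, beside 2257 of all genes, which is a similar share. The median difference was -0.63, against 0.10 over all genes, and 26 of the 30 had a negative sign. Without SSC replicate 2, the array with the lower Ctsk and Lipa levels, these 2 genes were called lower. Both SSC arrays exceeded both iSSC arrays for 20 genes, against 17.7% of all genes. The smallest adjusted p was that of Lipa, at -1.39 ± 0.25 (adjusted p = 0.054). Gusb was at -1.27 ± 0.29 (adjusted p = 0.10) and Ctsb at -1.02 ± 0.25 (adjusted p = 0.12). Cd68 was at -1.94 ± 0.63 (adjusted p = 0.21) and Laptm5 at -1.47 ± 0.46 (adjusted p = 0.19). Between the same arrays 8 of 26 macrophage genes fell, with a median of -1.57 and 25 of negative sign. Of the 21 fibroblast genes 1 fell, but all had a negative sign, with a median of -1.67 and 10 at an unadjusted p under 0.05. The part of either in the lysosomal differences was not tested.

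How far the iSSC level lay toward the mSSC level differed among the 14 genes that fell in mSSC. The comparisons of iSSC and mSSC with SSC share the SSC arrays, so these shares are descriptions. The iSSC difference was 63.1% of the mSSC difference for Cd68, 60.9% for Gusb, 58.4% for Lamp2 and 48.8% for Lipa. These shares hold for the main probe sets only. The other, dimmer probe set of Gusb was at -0.17 in iSSC and -1.17 in mSSC against SSC. The 4 probe sets of Lamp2 ran from -0.64 to 0.48 in iSSC against SSC. The share was 15.5% for Grn, 21.3% for Psap, 23.4% for Ctsz, 26.5% for Lgmn and 29.3% for Ctsd, again for the main probe sets. Other probe sets of Grn were at -0.76 and -0.27 in iSSC and at -1.57 and -1.16 in mSSC against SSC. The other probe set of Psap was at 0.04 in iSSC and -1.68 in mSSC. The contrast between genes in these shares thus depends in part on the probe set. A share also depends on the size of the mSSC change, since the iSSC difference was -0.64 for Lamp2, -0.65 for Ctsd and -0.62 for Lgmn. None of the 14 iSSC differences passed.

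The comparison of mSSC with iSSC asks what separates the multipotent from the intermediate state. Of the 30 lysosomal genes 7 fell, none rose and 23 did not pass, against 9.60% of all genes called lower and 7.53% called higher. The 7 were Lgmn (-1.72 ± 0.24, adjusted p = 0.0067), Ctsd (-1.58 ± 0.25, adjusted p = 0.0098), Psap (-1.71 ± 0.27, adjusted p = 0.010), Lipa (-1.46 ± 0.25, adjusted p = 0.013), Ctsb, Ctsz and Ctsh. All 7 had also fallen against SSC. The count was 0 without iSSC replicate 1, 1 without iSSC replicate 2 and 4 without mSSC replicate 1. Without an iSSC array that group has 1 sample, assumed to vary like the others, and calls over all genes went from 3117 to 604 or 771. Ctsb, whose iSSC arrays were nearly equal, was at -1.26 ± 0.36 without either array, against ± 0.25 with both. Lgmn was at -1.53 and -1.92. Ctsh, with iSSC arrays at 9.23 and 8.61, ran from -1.84 to -1.22 over all settings. Without mSSC replicate 1 the mSSC level rests on replicate 2 alone, and Scarb2 was then at 1.45. The unmoderated fit called 0, with 9 at an unadjusted p under 0.05, beside 4263 of all 18194 genes. Macrophage genes fell between these arrays for 18 of 26 and fibroblast genes for 5 of 21.

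To separate general lysosomal genes from those that moved with macrophage transcripts, each was set beside the mean log2 level of the 26 macrophage genes over the 6 arrays. The slope is the log2 change of a gene per log2 unit of that mean, so that 1 means equal steps and 0 no relation. The 6 points come in 3 kinds of 2, so slopes and Pearson's r are descriptions with no p. In mSSC most of the 26 genes lay under the array median, so the step of their mean may be only a lower bound. Slopes ran from -0.10 (Neu1) to 0.87 (Ctsk), with a median of 0.24, and 26 of 30 were above 0. A gene was said to follow the macrophage level when r was at least 0.9, the slope at least 0.5 and the kinds stood in the order SSC, iSSC, mSSC without overlap. This held for 5 genes: Ctsk (0.87 ± 0.20), Lipa (0.63 ± 0.05), Lgmn (0.54 ± 0.04), Ctsd (0.50 ± 0.05) and Psap (0.50 ± 0.06). How many of all genes meet this rule was not counted, so whether 5 of 30 is unusual is not known. The other probe set of Psap, at 12.58 and 13.12 in SSC and 13.02 and 12.77 in iSSC, overlapped and would not meet the rule. Ctsb had the same slope as Ctsd and Psap to 2 decimals (0.50 ± 0.05) but lay just under the threshold. Ctsh (0.53 ± 0.06) missed the rule by its overlap. The count was 2 without mSSC replicate 1, namely Lgmn and Lipa, and 8 without mSSC replicate 2.

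Cd68, the macrophage marker of the list, was not among the 5. Its slope was 0.67 ± 0.18, but its r of 0.88 missed the threshold. Cd68 was higher in mSSC replicate 2 than in replicate 1 by 1.68, where most macrophage genes lay under the array median. It met the rule without mSSC replicate 2 and also without iSSC replicate 2. Laptm5 had a slope of 0.12 ± 0.19. In contrast Ctss, a lysosomal protease of antigen-presenting cells that is not on the list, went from 12.85 and 11.75 in SSC through 10.80 and 10.60 in iSSC to 5.20 and 4.72 in mSSC (-7.34 ± 0.39 against SSC, adjusted p = 0.00052). It ended below the array median in mSSC, as most macrophage genes did, whereas Cd68 did not.

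At the other end 5 genes had slopes between -0.1 and 0.1: Ctsc, Gla, Glb1, Asah1 and Scarb2. Neu1 lay just outside them, at -0.10 ± 0.09. The remaining 20, Neu1 included, fell in neither class. Lamp1 (0.21 ± 0.04), Lamp2 (0.23 ± 0.04) and Ctsz (0.28 ± 0.03) had shallow slopes with little scatter. Hexa, Gaa, Man2b1 and Ctsl had slopes from 0.21 to 0.25 with wider scatter. Lamp1 and Lamp2 thus moved the same way as the macrophage genes, by a small part of their step.

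**Figure D3:**
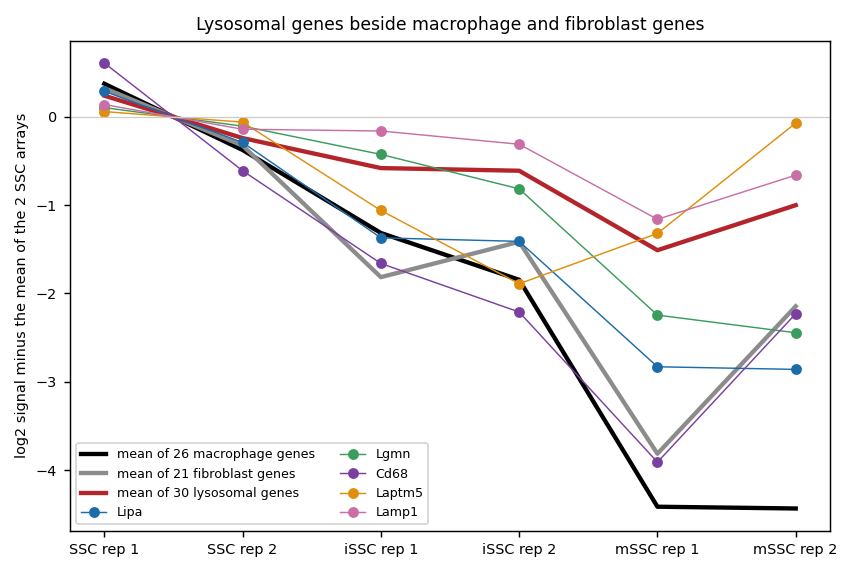
Log2 signal on each array (x axis) minus the mean of the 2 SSC arrays (y axis) for the mean of the macrophage, fibroblast and lysosomal genes (thick lines) and for 5 single genes (points); the lines only guide the eye. The macrophage mean lies at 5.29 and 5.27 in the mSSC arrays, where most of its genes are under the array median. Cd68 and Laptm5 are higher in mSSC replicate 2, as the fibroblast mean is.

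The mSSC arrays differed in the fibroblast mean, 7.78 and 9.45, while the macrophage mean was 5.29 and 5.27. Most macrophage genes lay under the array median in both, where a difference may not show. Above it Lyz2 was at 6.16 and 6.15 and Csf1r at 6.23 and 6.01, and below it Adgre1 was at 5.27 and 4.11. Replicate 2 was higher than replicate 1 for 24 of 30 lysosomal genes, against 39.7% of all genes, with a median difference of 0.53 against -0.10 over all genes. It was at least 2-fold higher for 5, against 4.52% of all genes: Cd68 (1.68), Ctsc (1.47), Laptm5 (1.26), Ctsk (1.11) and Hexa (1.01). Asah1 (0.91), Tpp1 (0.93), Grn (0.85) and Scarb2 (0.85) came next. Lipa (-0.02), Lgmn (-0.20) and Ctsh (-0.33), which all fell against SSC, were not higher in replicate 2. With 1 array on each side these differences have no replicate check. The excess of 3′ signal of beta-actin also differed, at 0.61 in mSSC replicate 1 and 0.12 in replicate 2. The parts of fibroblast RNA and of RNA quality in the differences within the mSSC pair were not tested.

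Over all 6 arrays Cd68 had an r of 0.97 with the fibroblast mean and 0.88 with the macrophage mean. For Hexa these were 0.97 and 0.83, and for Gusb 0.98 and 0.92. Lgmn had 0.84 and 0.99, Ctsh 0.82 and 0.97, and Lipa 0.92 and 0.99. Ctsd had 0.93 and 0.98, and Psap 0.91 and 0.97. Ctsk, though it met the rule for following the macrophage level, had 0.93 and 0.91. The arrays that share a kind share both levels, so that neither r is more than a description. This comparison with fibroblast genes was chosen after the values were seen.

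In the SSC pair replicate 1 had the higher macrophage mean, by 0.76, and the higher fibroblast mean, by 0.65. Of the 30 lysosomal genes 26 were higher there, against 62.3% of all genes, with a median of 0.34 against 0.14. Ctsk (2.67), Cd68 (1.23), Gm2a (1.14), Ctsh (1.06) and Tpp1 (1.05) differed most. SSC replicate 1 was also the array with the largest excess of 3′ signal of beta-actin, and the part of RNA quality was not tested. The iSSC arrays differed by a median of 0.02 over the lysosomal genes.

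**Figure D4:**
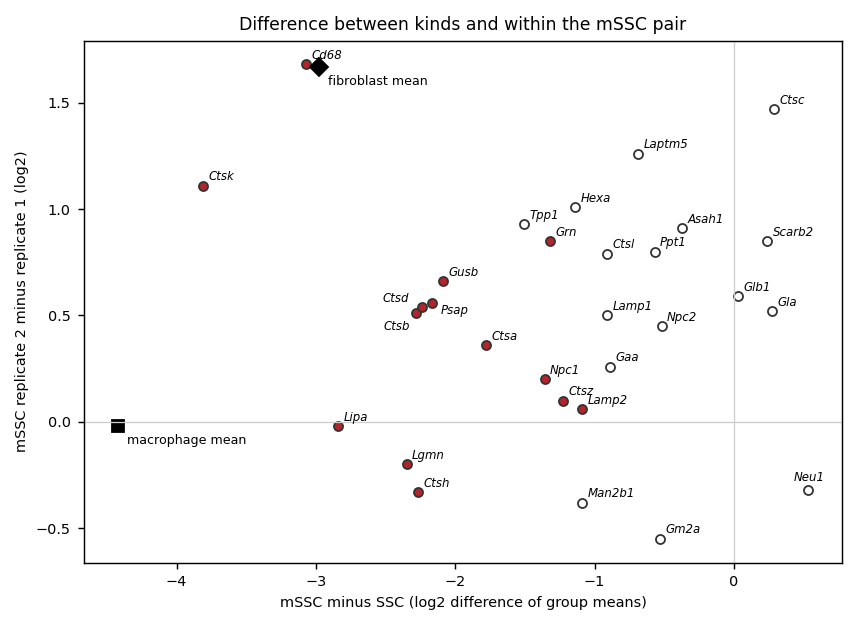
Difference of mSSC from SSC (x axis, log2) against the difference between the mSSC arrays (y axis, log2) for the 30 lysosomal genes, with filled circles for genes called in mSSC against SSC and black symbols for the means of the macrophage and fibroblast genes. Cd68 sits beside the fibroblast mean, and Lipa, Lgmn and Ctsh sit near or below 0 on the y axis. The macrophage mean lies at -0.02 there, with most of its genes under the array median in mSSC.

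Other genes of the lysosome were taken from lists that share no member with the 30. Of 25 other hydrolases measured 9 fell (36%) and 1 rose (4%) in mSSC against SSC, with a median of -1.13, against -1.11 for the 30 genes. Ctss led them, followed by Ctso, a cysteine protease (-3.61 ± 0.38, adjusted p = 0.0029), and Naglu, which degrades heparan sulfate (-2.92 ± 0.36, adjusted p = 0.0046). Ctso was at 8.82 and 8.98 in SSC, 8.96 and 8.68 in iSSC, and 4.73 and 5.85 in mSSC, with its whole step between iSSC and mSSC. The gene that rose was Manba, a beta-mannosidase, named here after its value was seen. It was at 7.09 and 7.37 in SSC, 8.21 and 7.80 in iSSC, and 9.42 and 11.72 in mSSC (3.34 ± 0.68, adjusted p = 0.021). Against iSSC 7 of the 25 fell and 2 rose. None passed between iSSC and SSC in limma, with 3 at an unadjusted p under 0.05, beside 3090 of all 18194 genes.

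Of 14 other membrane proteins 4 fell (28.6%) and 3 rose (21.4%) in mSSC against SSC, beside 10.6% and 8.22% of all genes and 16.9% lower among bright genes. Slc15a3, a peptide and histidine transporter, fell by 3.29 ± 0.56 (adjusted p = 0.012), and Sidt2 by 1.14 ± 0.24 (adjusted p = 0.024). Tmem192 rose by 0.92 ± 0.21 (adjusted p = 0.028), and Laptm4b, a relative of Laptm5, by 1.07 ± 0.26 (adjusted p = 0.034). Laptm4b was at 11.14 and 11.55 in SSC, 11.72 and 12.16 in iSSC, and 12.46 and 12.37 in mSSC, the reverse of the usual order.

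Of 17 genes of the V-ATPase, the proton pump that acidifies lysosomes, 3 fell and none rose, with a median of -0.29. They were the membrane subunits Atp6v0a2 (-1.55 ± 0.35, adjusted p = 0.030) and Atp6v0a1 (-1.67 ± 0.43, adjusted p = 0.042) and the accessory subunit Atp6ap1 (-1.31 ± 0.31, adjusted p = 0.033). Of 24 genes of sorting and biogenesis 3 fell and 1 rose, with a median of -0.25. Sort1, a sorting receptor for lysosomal proteins, fell by 2.39 ± 0.31 (adjusted p = 0.0056), and Lyst by 2.55 ± 0.40 (adjusted p = 0.0097). The shares called lower, 17.6% and 12.5%, are near the 16.9% of bright genes.

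Among 17 genes of nutrient signalling at the lysosome 2 fell (11.8%) and 1 rose (5.88%), shares near the 10.6% and 8.22% of all genes. Rragd and Rragc, GTPases that recruit mTORC1, fell by 2.12 ± 0.36 (adjusted p = 0.012) and 1.06 ± 0.25 (adjusted p = 0.035). Tfeb, the transcription factor that binds the CLEAR element, was the gene that rose (1.08 ± 0.22, adjusted p = 0.022). It was at 7.93 and 7.99 in SSC, 8.83 and 8.60 in iSSC, and 8.88 and 9.21 in mSSC, opposite in order to most of the genes described above. Its relatives Tfe3 (0.56 ± 0.44, adjusted p = 0.43), Mitf (-0.17 ± 0.67, adjusted p = 0.89) and Tfec (-1.61 ± 0.52, adjusted p = 0.080) did not pass. Spi1, which encodes PU.1, was at 9.76 and 7.95 in SSC, 7.56 and 6.97 in iSSC, and 6.65 and 6.48 in mSSC (-2.29 ± 0.57, adjusted p = 0.038). Tfe3, Mitf, Tfec and Spi1 were chosen after their values were seen.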

How the data were processed

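RNA of 6 samples was measured on Affymetrix arrays. The deposited values are log2 signals that the authors made with RMA, which is named in the submitters' processing notes without a version. RMA subtracts background, normalizes between arrays and summarises each probe set. The values were used as they stand. A single gene symbol was paired with 34958 of 45101 probe sets. Updating symbols by gene identifier through RefSeq (GRCm38.p6) matched 34754 and changed 0. The probe set with the highest mean stood for each of 18194 genes.

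limma 3.58.1 (R 4.3.3) fitted group means over all 6 arrays with moderated variances. Tests were 2-sided, and a call needed p under 0.05 after Benjamini-Hochberg adjustment across the 18194 genes. The fit was tested on simulated data with added changes larger than that of any listed lysosomal gene by its main probe set. That test does not show how the fit performs on changes of their size. The genes and lists were chosen with earlier results of these data known. All listed lysosomal genes could be named. From each other lysosomal list the rule took the 3 smallest p per comparison, and from the macrophage list Lyz2, C1qb, Csf1r and Adgre1. Any gene outside this rule is marked as such in the text. Signals in proteins, which the plan named, were not analysed here.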

Additional observations from a re-analysis of the deposited data

How the results depend on the processing

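Of 224 refits of the 14 lysosomal genes that fell in mSSC against SSC, 188 kept the call. For the 7 that fell against iSSC, 80 of 112 kept it. No sign turned in either, but these refits are not separate checks. A replicate block, a filter on dim genes or another variance setting leaves the difference, and so its sign, unchanged. So do the 4 arrays alone and leaving out an array of the kind not compared, which are the same fit. Leaving out each array in turn gave 7 to 16 lower genes in mSSC against SSC, 0 to 2 in iSSC against SSC and 0 to 10 in mSSC against iSSC, where 0 to 2 were higher. Over all genes it gave 1966 to 3462, 0 to 503 and 604 to 3724 calls, and it gave 2 to 8 genes that follow the macrophage level. Without moderation 0 lysosomal genes and 14, 2 and 26 of all genes were called in the 3 comparisons. At an unadjusted p under 0.05 there were 15, 4 and 9 lysosomal genes, beside 4696, 2257 and 4263 of all 18194. With only the 4 arrays compared 1966 genes were called in mSSC against SSC. The filter on dim genes called 1 lysosomal gene lower in iSSC. Centring on the median raised the median change of all genes in mSSC against SSC from 0.08 to 0.33, left 13 lysosomal genes lower, called 1 higher in mSSC against iSSC, and gave 2 that follow the macrophage level. The most variable probe set gave 3 (Ctsb, Ctsk and Lgmn, of which 2 are among the 5) and 113 genes called in iSSC against SSC, where averaged probe sets gave 29. With the replicate number as a block 148 were called there, while 13 lysosomal genes were lower in mSSC against SSC. Deviations of same-numbered arrays correlated at 0.12, 0.07 and 0.17, so that each array went best with its own number, but not every r was over 0.1 and the numbers were not taken as pairs. Of the 90 gene and comparison pairs 21 changed sign in 1 to 6 of 16 settings (6 in mSSC against SSC, 9 in iSSC against SSC and 6 in mSSC against iSSC). None of the 21 was called with all arrays, and no difference is printed for them. The causes were not tested, and 2 arrays a group limit the precision.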
